A study of Mus musculus with 8 samples.

Results

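The 7 genes described here encode secreted matricellular proteins and mechanosensitive proteins of the cell surface and cytoskeleton: Ccn1 (formerly Cyr61), Ccn2 (formerly Ctgf), Thbs1, F3, Ankrd1, Tns1 and Ezr. They were chosen by name, with their differences between hormone-treated and untreated 3T3-L1 cells already known, and were 7 of the 20886 genes to which the probes of the array could be matched. The array carried 9 probes for them, 2 each for F3 and Tns1 and 1 for each of the others. The study asked how the stress-associated hormones cortisol and serotonin act on pre-adipocytes and macrophages that share a culture. 3T3-L1 (3T3L-1 in the labels) is a mouse embryonic fibroblast line used as a model of pre-adipocytes, and Raw264.7 is a mouse macrophage line. Each line was grown across a transwell from the other for 48 h. By the methods of the study, each line had a co-culture set-up of its own, and RNA was taken from its lower well. The cell numbers seeded differed between the set-ups. For each line there were 4 conditions: 100 µM cortisol, 100 µM serotonin, 100 µM of each (cortisol-serotonin), and no treatment (NT), which was also a co-culture. Each condition was 1 two-colour array, 8 in all, with the RNA of the cells in Cy5 and a common reference RNA in Cy3. The values below are log2 ratios of Cy5 to Cy3, called log2 ratios to the reference, and differences between the ratios of 2 arrays. With 1 array per condition no hormone difference has a replicate, so none was tested. The error beside a difference combines the errors that the scanner software gives for the ratios on both arrays, and covers the measurement of the spots only.

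CCN1 and CCN2 are secreted proteins that bind integrins and heparan sulphate proteoglycans, and thrombospondin 1 (Thbs1) binds CD47 and CD36 and activates latent TGF-beta. Ccn1, Ccn2 and Ankrd1 are textbook targets of the co-activators YAP and TAZ, which act with TEAD factors when cells spread or the Hippo kinases are inactive. Many cytoskeletal genes are targets of SRF and its MRTF co-activators, which respond to actin polymerisation. F3 encodes tissue factor, the cell-surface initiator of coagulation. Ankrd1 encodes an ankyrin repeat protein of striated muscle that is also expressed in fibroblasts. Tensin 1 (Tns1) links integrins to actin, and ezrin (Ezr) links membrane proteins to actin.

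Promoter sequences are shown for the members that hold a match to a TEAD or AP-1 motif, since TEAD factors are the partners of YAP and TAZ and AP-1 is a known regulator of F3. They are RefSeq windows of 300 bases around the start site in build GRCm38.p6, read 5′ to 3′ on the strand of the gene, and 5 of the 7 members matched a window by symbol. Capitals mark GGAATG or its reverse complement (TEAD) and TGANTCA (AP-1), searched on both strands with no overlap between the 2 motifs.
Ccn1, chr3:145649936-145650235, minus strand: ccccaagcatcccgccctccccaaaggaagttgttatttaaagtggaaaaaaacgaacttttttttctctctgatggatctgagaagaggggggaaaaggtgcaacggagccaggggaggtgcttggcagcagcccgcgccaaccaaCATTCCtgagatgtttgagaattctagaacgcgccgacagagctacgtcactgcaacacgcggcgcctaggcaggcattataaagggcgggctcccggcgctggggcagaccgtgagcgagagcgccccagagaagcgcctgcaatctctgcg
Ankrd1, chr19:36119795-36120094, minus strand: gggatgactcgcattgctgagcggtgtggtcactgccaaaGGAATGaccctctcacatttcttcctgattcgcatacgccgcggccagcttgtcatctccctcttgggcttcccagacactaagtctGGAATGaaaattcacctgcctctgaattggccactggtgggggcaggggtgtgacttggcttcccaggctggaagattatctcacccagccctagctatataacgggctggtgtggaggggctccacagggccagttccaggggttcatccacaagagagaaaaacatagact
F3, chr3:121723287-121723586, plus strand: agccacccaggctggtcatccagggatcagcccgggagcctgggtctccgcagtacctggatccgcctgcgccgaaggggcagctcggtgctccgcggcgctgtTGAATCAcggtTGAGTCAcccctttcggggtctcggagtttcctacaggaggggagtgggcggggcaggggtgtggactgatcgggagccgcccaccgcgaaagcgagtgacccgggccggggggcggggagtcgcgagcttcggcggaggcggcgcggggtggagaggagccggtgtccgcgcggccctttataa
Ezr, chr17:6782731-6783030, minus strand: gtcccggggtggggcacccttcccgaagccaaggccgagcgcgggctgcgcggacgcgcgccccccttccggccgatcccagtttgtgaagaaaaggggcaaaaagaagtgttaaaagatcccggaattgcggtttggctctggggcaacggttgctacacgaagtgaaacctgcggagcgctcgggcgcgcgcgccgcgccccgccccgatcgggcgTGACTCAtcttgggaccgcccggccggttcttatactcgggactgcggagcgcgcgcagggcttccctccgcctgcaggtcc
The TEAD letters stood at -103 in Ccn1 and at -210 and -123 in Ankrd1, counted from the start site. The AP-1 letters stood at -146 and -135 in F3 and at -32 in Ezr. The Tns1 window held neither motif. Of all 32851 windows, 14.7% held the TEAD letters and 7.81% the AP-1 letters, against 2 of the 5 member windows for each. The CArG box bound by SRF was in 1.63% of all windows and in 0 of 5 member windows. These matches describe letters and are no evidence of binding.

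In 3T3-L1 cells all 7 members had spots well above background in Cy5 and Cy3 on each of the 4 arrays. In Raw264.7 cells 5 of 7 did, while Ccn2 and Thbs1 were not well above background in Cy5 on any of the 4 arrays. Median Cy5 signals lay between 62 and 79 on the 3T3-L1 arrays and between 51 and 103 on the Raw264.7 arrays, over a background of 26.5 to 28, and between 43.7% and 47.8% of spots were well above background in both channels. No spot was saturated. Of 9 fibroblast markers, 7 to 8 were above background in Cy5 in 3T3-L1 cells and 4 to 6 in Raw264.7 cells. Of 10 macrophage markers, 6 to 7 were above background in 3T3-L1 cells and 9 in Raw264.7 cells. The mean log2 ratio of the macrophage markers lay between -3.06 and -2.53 on the 3T3-L1 arrays and between 1.12 and 1.5 on the Raw264.7 arrays, so the lines matched their labels. On the 3T3-L1 arrays, targets of the glucocorticoid receptor did not follow the label cortisol. Fkbp5 differed from NT by 0.14 on the array labelled cortisol, 1.31 on serotonin and 1.44 on cortisol-serotonin, and Zbtb16 by -0.19, 1.94 and 1.96. Over 8 such targets the medians were -0.30, 0.78 and 0.78 in the same order, beside medians of all genes between -0.01 and 0.00. On the Raw264.7 arrays 7 such targets were measured, with medians of -0.24, 0.33 and 0.01, beside 0.03, -0.03 and 0.00 for all genes. Of these 7, 0 lay above 0 with cortisol, 6 with serotonin and 4 with cortisol-serotonin. Most lay within their errors. Beyond them with cortisol were only Dusp1 at -0.58 (error 0.30) and Per1 at -0.37 (error 0.31). With serotonin only Tsc22d3 at 0.63 (error 0.29), Sgk1 at 0.49 (error 0.30) and Dusp1 at 0.36 (error 0.29) were. With cortisol-serotonin only Tsc22d3 at 0.52 (error 0.29) and Sgk1 at 0.38 (error 0.30) were. The hormone names below are therefore those of the labels. Whether the cortisol and serotonin labels were exchanged in either line was not tested.

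The secreted members Ccn2 and Thbs1 and the tissue factor gene F3 were at least 2-fold lower than NT on the array labelled cortisol in 3T3-L1 cells. Neither the serotonin nor the cortisol-serotonin array showed a 2-fold difference in these 3 genes. Tns1 and Ezr were highest on the arrays labelled serotonin and cortisol-serotonin. On the array labelled cortisol, 3 of the 7 members were at least 2-fold lower and 0 higher, where 1.28% of the 10991 genes measured were at least 2-fold lower, 0.419% higher and 1.7% either. Since the members were chosen on this contrast, nothing is read from that count. Of the 7 members, 6 had their lowest ratio on the array labelled cortisol, as did 33.1% of the 10528 genes measured on all 4 arrays. The exception was Ezr, lowest in NT. For the same reason nothing is read from this count either.

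**Figure D1:**
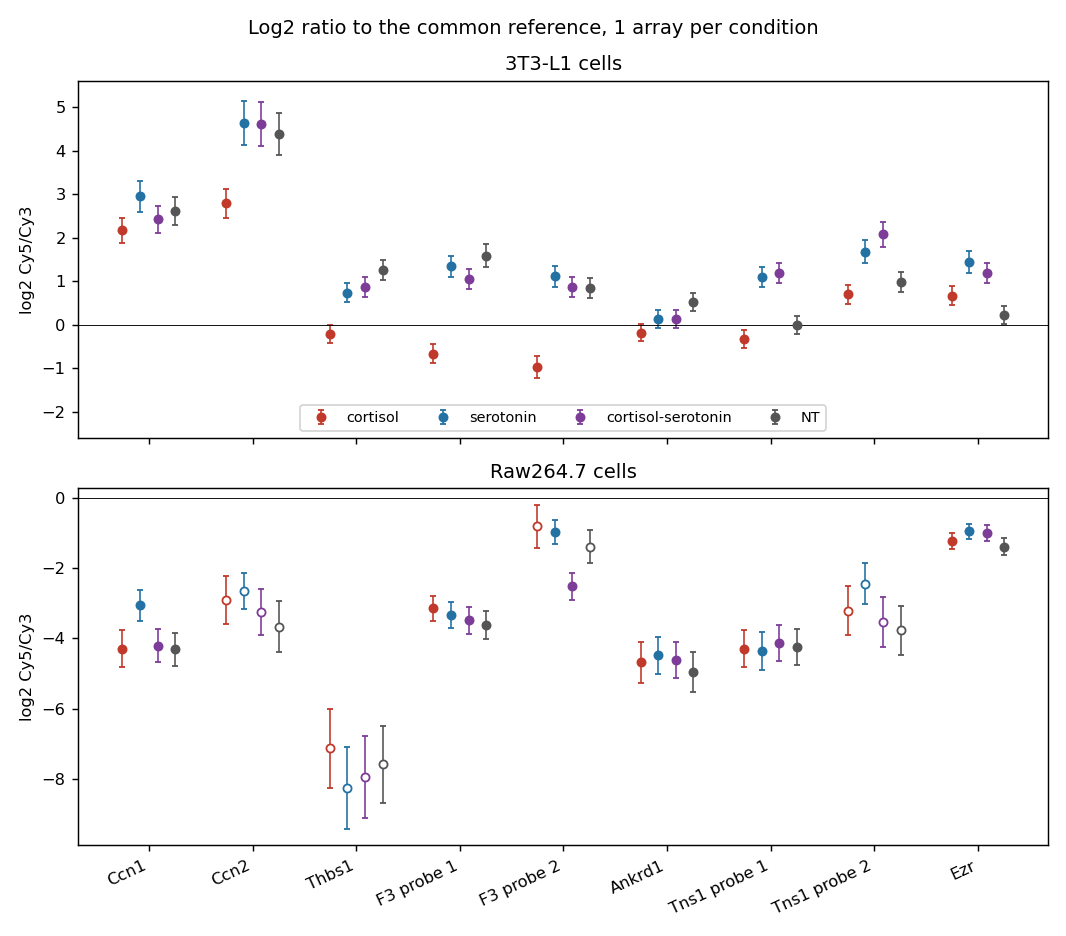
Log2 ratio to the reference (vertical axis) of each member probe on the 4 arrays of 3T3-L1 cells (top) and of Raw264.7 cells (bottom), in the order cortisol, serotonin, cortisol-serotonin and NT. Points are single arrays, bars are the error given by the scanner software, and open points were not well above background in Cy5. In 3T3-L1 cells the points labelled cortisol stand apart from the other arrays for Ccn2 (2.79, against 4.39 to 4.63) and for both F3 probes.

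Ccn2, a secreted integrin ligand, had a log2 ratio of 2.79 on the 3T3-L1 array labelled cortisol, 4.63 on serotonin, 4.61 on cortisol-serotonin and 4.39 on NT. The cortisol array stood below the other 3, which lay within their error of each other. The difference from NT was -1.60 (error 0.59), 3.03-fold lower with cortisol. The serotonin and cortisol-serotonin arrays differed from NT by 0.24 and 0.23, with an error of 0.70 each. Thbs1 had log2 ratios of -0.21 with cortisol, 0.74 with serotonin, 0.87 with cortisol-serotonin and 1.26 on NT. In this ratio all 3 treated arrays lay below NT, the cortisol array by the most. Its difference from NT was -1.46 (error 0.31), or 2.76-fold lower, against -0.52 (error 0.32) with serotonin and -0.39 (error 0.32) with cortisol-serotonin. The reference channel entered these values. The Thbs1 spot differed from NT by -1.05, -0.10 and -0.22 in Cy5 with cortisol, serotonin and cortisol-serotonin. In Cy3 it differed by 0.41, 0.41 and 0.17, in the same order. Ccn1, the other CCN member on the array with strong signal, had log2 ratios of 2.17, 2.95, 2.42 and 2.62 in cortisol, serotonin, cortisol-serotonin and NT. No neighbouring levels in that order differed beyond their error, and its differences from NT were -0.44 (error 0.43), 0.34 (error 0.47) and -0.20 (error 0.44). The sign with serotonin depended on the reference channel: the Ccn1 spot was lower in Cy5 (-0.41) and lower still in Cy3 (-0.74) than on the NT array.

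F3 had the lowest difference of all 10991 genes measured on the array labelled cortisol. Nothing is read from that rank, since F3 was chosen with this difference known. The log2 ratio of F3, the mean of 2 probes, was -0.81 with cortisol, 1.24 with serotonin, 0.96 with cortisol-serotonin and 1.21 on NT. The cortisol array lay below the other 3 by at least 1.77 log2 units. The difference from NT was -2.02 (error 0.24), 4.06-fold lower, against 0.02 (error 0.24) with serotonin and -0.25 (error 0.24) with cortisol-serotonin. Both probes gave it. The brighter one read -0.66 with cortisol against 1.59 on NT, and the dimmer one -0.96 with cortisol against 0.84 on NT. The probes did not agree on cortisol-serotonin, which was 1.06 against 1.59 on NT with the brighter probe and 0.86 against 0.84 with the dimmer. On the cortisol array the brighter probe differed from NT by -1.68 in Cy5 and 0.57 in Cy3, and the dimmer by -1.80 in Cy5 and -0.00 in Cy3. Ankrd1 had log2 ratios of -0.18 with cortisol, 0.13 with serotonin, 0.14 with cortisol-serotonin and 0.52 on NT. NT was the highest and cortisol the lowest, and the other 2 arrays did not differ beyond their error. The difference with cortisol was -0.70 (error 0.30), 1.63-fold lower, and those with serotonin and cortisol-serotonin were -0.39 and -0.38 (error 0.30 each).

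Tns1, which couples integrins to actin, had a mean log2 ratio over 2 probes of 0.19 with cortisol, 1.39 with serotonin, 1.63 with cortisol-serotonin and 0.49 on NT. The serotonin and cortisol-serotonin arrays lay above the cortisol and NT arrays and did not differ from each other beyond their error. The difference from NT was -0.31 (error 0.21) with cortisol, 0.90 (error 0.23) with serotonin, 1.87-fold higher, and 1.14 (error 0.24) with cortisol-serotonin, 2.2-fold higher. The first probe read -0.32, 1.11, 1.19 and -0.00 in cortisol, serotonin, cortisol-serotonin and NT, and the second 0.70, 1.68, 2.08 and 0.99, so both placed the arrays in the same order. Ezr had log2 ratios of 0.67 with cortisol, 1.44 with serotonin, 1.19 with cortisol-serotonin and 0.22 on NT. NT was the lowest, cortisol the next, and the serotonin and cortisol-serotonin arrays did not differ beyond their error. The difference from NT was 0.45 (error 0.30) with cortisol, 1.22 (error 0.32) with serotonin, 2.32-fold higher, and 0.97 (error 0.32) with cortisol-serotonin, 1.96-fold higher. On cortisol the Ezr difference was 0.08 in Cy5 alone. At a 2-fold threshold 1 member was higher with serotonin, Ezr, where 0.57% of 10883 genes were higher. With cortisol-serotonin 1 was higher, Tns1, where 0.705% of 10782 genes were higher. In either 0 were lower, where 0.809% of genes were lower with serotonin and 0.705% with cortisol-serotonin. Nothing is read from these counts, since the members were chosen with the differences known.

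**Figure D2:**
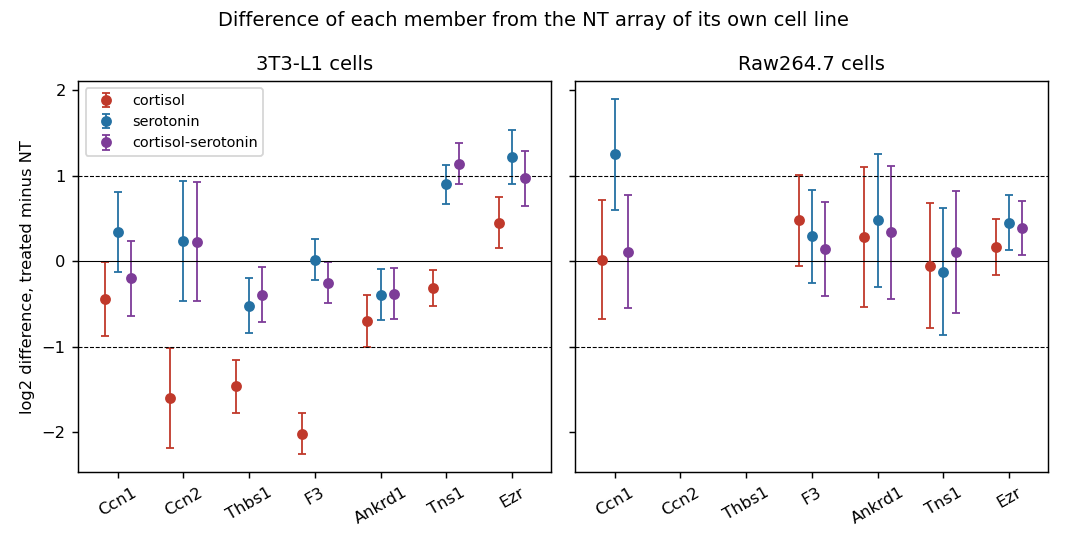
Log2 difference from the NT array of the same cell line (vertical axis) for each member, in 3T3-L1 cells (left) and Raw264.7 cells (right). Points are treated arrays in the order cortisol, serotonin and cortisol-serotonin, bars the combined error of the 2 ratios, and dashed lines mark a 2-fold difference. Ccn2, Thbs1 and F3 lie below the lower line with cortisol in 3T3-L1 cells, and Ccn2 and Thbs1 have no value in Raw264.7 cells.

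The combined treatment was also set against each hormone alone in 3T3-L1 cells. Cortisol-serotonin exceeded cortisol alone by 1.82 for Ccn2, 1.77 for F3, 1.45 for Tns1 and 1.08 for Thbs1. Each was at least 2-fold, where 1.14% of 10788 genes were at least 2-fold higher. Nothing is read from that count, since the members were chosen with their differences from NT known. The differences for Ezr, Ankrd1 and Ccn1 were 0.52, 0.32 and 0.25. Against serotonin alone, cortisol-serotonin differed by -0.01 for Ccn2, 0.13 for Thbs1, -0.28 for F3, 0.00 for Ankrd1, 0.24 for Tns1, -0.24 for Ezr and -0.53 for Ccn1. No member was 2-fold apart there, as for most genes, since 0.0558% of 10744 genes were. The differences from NT share the NT array and these share the cortisol-serotonin array, so they are not independent of each other.

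Other genes of the members' pathways were counted at the same threshold. Of all genes in 3T3-L1 cells, 1.28% were at least 2-fold lower with cortisol, 0.809% with serotonin and 0.705% with cortisol-serotonin. At least 2-fold higher were 0.419%, 0.57% and 0.705%, in the same order. Of 19 other YAP and TAZ targets 15 were measured on the cortisol and NT arrays of 3T3-L1 cells, 1 was at least 2-fold lower and 0 higher, and their median difference was 0.04, beside -0.01 for all genes. The 1 lower gene was Amotl2, an angiomotin family member that holds YAP in the cytoplasm, at -1.11 (error 0.36). Ajuba, a LIM protein that restrains the Hippo kinases, differed by -0.90 and Dock5 by -0.75, while Ccdc80, a secreted matrix protein, differed by 0.43. With serotonin and with cortisol-serotonin 0 of 15 passed 2-fold, and the medians were 0.10 and 0.01. Among 14 genes of the Hippo pathway itself 0 passed 2-fold with cortisol (median -0.07). The lowest were Sav1, the scaffold of the Hippo kinases, at -0.97 (error 0.30), Yap1 at -0.72 (error 0.31) and Wwtr1, which encodes TAZ, at -0.55 (error 0.33). Yap1 also differed by -0.77 (error 0.31) with serotonin, where Tead4 differed by 0.97 (error 0.37).

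The SRF and MRTF list holds their targets and also the regulator genes Srf, Mrtfa and Mrtfb, which lay below 0 with each treatment. Of its 18 measured genes, 16 lay below 0 with cortisol, 16 with serotonin and 17 with cortisol-serotonin. The medians were -0.33, -0.43 and -0.40. The medians of all genes were between -0.01 and 0.00. The share of all genes below 0 was not counted, and the list was not followed under median centring. It was also chosen with earlier results known, so nothing is read from the counts below 0. Only Egr1, an immediate-early transcription factor, passed 2-fold, at -1.30 (error 0.30) with serotonin, and it differed by -0.86 with cortisol. With cortisol the lowest were the actin gene Actg1 at -0.89 (error 0.15), Egr1, the LIM protein gene Fhl2 at -0.82 and the vinculin gene Vcl at -0.71. The 3 treatments share 1 NT array, whose own level enters all of these medians.

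Around tissue factor, 8 of 11 genes of coagulation control and plasminogen activation were measured, and 2 were at least 2-fold lower with cortisol (median -0.31, beside -0.01 for all genes). Of all genes, 1.28% were at least 2-fold lower with cortisol, 0.809% with serotonin and 0.705% with cortisol-serotonin. Thbd, which encodes the anticoagulant receptor thrombomodulin, differed by -1.54 (error 0.38) and the urokinase gene Plau by -1.05 (error 0.69). F2r, the thrombin receptor gene, differed by -0.94 (error 0.29), and Procr, the gene of the endothelial protein C receptor, by 0.50 (error 0.32). Plau and Thbd were also at least 2-fold lower on the other treated arrays, at -1.79 and -1.14 with serotonin and -1.36 and -1.18 with cortisol-serotonin. The errors of Plau there were 0.75 and 0.73, and Plau was lower in 3T3-L1 than in Raw264.7 cells (log2 difference -4.99, SE 0.183). The macrophage markers had medians of -0.14, -0.49 and -0.37 in 3T3-L1 cells with cortisol, serotonin and cortisol-serotonin. The part of macrophage RNA in the Plau values was not tested. F3 itself was within its error of NT with serotonin.

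Among relatives and partners of the other members, 1 gene passed 2-fold in 3T3-L1 cells, the osteopontin gene Spp1 at -1.03 (error 0.33) with serotonin. It was 1 of 9 other matricellular genes measured there, and with cortisol Thbs3 differed by 0.66. Of the 4 other CCN genes 2 were measured, and Ccn4 differed by -0.32, -0.68 and -0.58 and Ccn5 by -0.23, 0.30 and 0.29 with cortisol, serotonin and cortisol-serotonin. Among tensins, Tns3 differed by -0.58, -0.60 and -0.54 and Tns2 by -0.13, 0.57 and 0.58, in the same order, against -0.31, 0.90 and 1.14 for Tns1. Of the other 2 ezrin-radixin-moesin genes, Msn differed by -0.85, -0.78 and -0.89 (error 0.29 each) and Rdx by -0.12, 0.09 and 0.19, against 0.45, 1.22 and 0.97 for Ezr. Of 12 measured receptors for CCN proteins and thrombospondin, 0 passed 2-fold with any treatment. The integrin genes Itgav and Itgb1 differed by -0.66 and -0.63 with cortisol, and Itgb3 by 0.60 and the syndecan gene Sdc4 by 0.64. Of 9 measured genes of TGF-beta signalling 0 passed 2-fold, and Tgfb1 differed by 0.81 with cortisol.

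**Figure D3:**
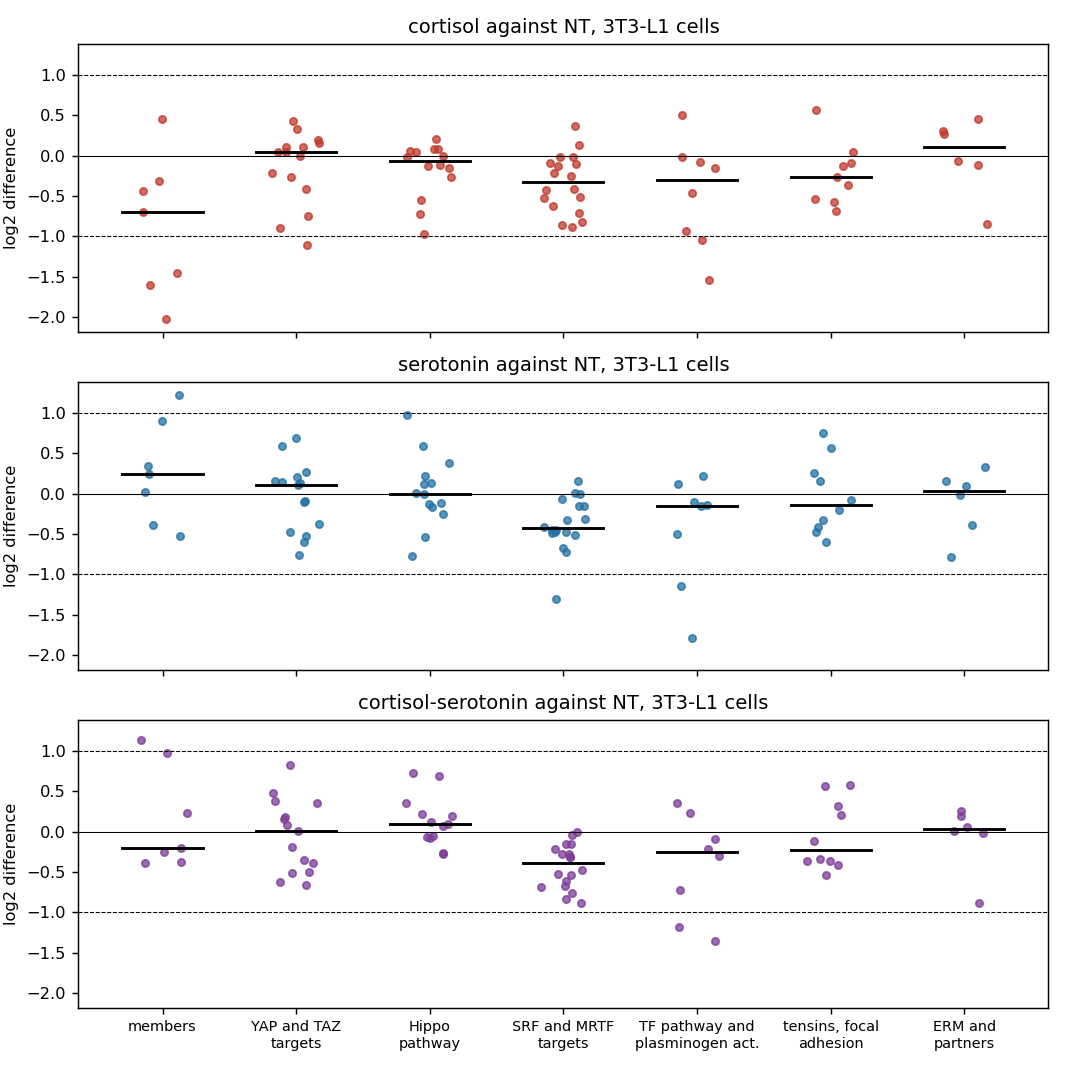
Log2 difference from NT in 3T3-L1 cells (vertical axis) of the members and of the measured genes of 6 related lists, with cortisol (top), serotonin (middle) and cortisol-serotonin (bottom). Points are genes, spread sideways at random, thick lines are list medians and dashed lines mark a 2-fold difference. The median of the members is -0.70, 0.24 and -0.20 from top to bottom, and that of the SRF and MRTF list -0.33, -0.43 and -0.40.

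The genes with the most similar pattern were found by the Euclidean distance between the 3 differences from NT in 3T3-L1 cells, over 4 arrays and 10528 genes. For Ccn2 they were Akap12 at a distance of 0.21 (-1.45, 0.16 and 0.09 with cortisol, serotonin and cortisol-serotonin), Zfp995 at 0.37 and Olfr319 at 0.39. For F3 they were Errfi1 at 0.46 (-1.59, -0.04 and -0.10), Zfp995 at 0.47 and Ccn2 itself at 0.67, and 0 genes lay within the error of F3. For Thbs1 they were Otud4 and Cbfb at 0.16 and Slc33a1 at 0.17, for Tns1 Steap4 at 0.12, Dhrs9 at 0.14 and Pter at 0.19, and for Ezr Adamts1 at 0.20, Zfp36l1 at 0.26 and Col6a2 at 0.27. Within the error of Tns1, Ezr and Thbs1 lay 13, 64 and 77 genes. The patterns of Ankrd1 and Ccn1 were not distinctive, with 1492 and 5775 genes within their error. The nearest were Naa40, Stambp and Tmem186 for Ankrd1 and Tceal8, Glrb and Klra2 for Ccn1.

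In Raw264.7 cells 4 of the 5 measured members stayed within 2-fold of NT with every treatment, and the exception was Ccn1. Ezr had log2 ratios of -1.23 with cortisol, -0.96 with serotonin, -1.01 with cortisol-serotonin and -1.40 on NT, differences of 0.17, 0.45 and 0.39. F3 differed from NT by 0.48, 0.29 and 0.14, Ankrd1 by 0.28, 0.48 and 0.34 and Tns1 by -0.05, -0.12 and 0.11 in the same order. Among these 4 genes only the serotonin and cortisol-serotonin differences of Ezr exceeded their errors, which were up to 0.82 for Ankrd1. With serotonin the Ezr spot differed by -0.05 in Cy5 and -0.49 in Cy3, so its sign turned in Cy5 alone, while with cortisol-serotonin it differed by 0.33 in Cy5 and -0.06 in Cy3. With cortisol 0 of 5 members passed 2-fold (0.0858% of 10490 genes did), and with cortisol-serotonin 0 of 5 (0.247% of 10536). With serotonin 1 of 5 did, Ccn1, where 0.643% of 10109 genes were at least 2-fold higher. Its log2 ratio was -4.29 with cortisol, -3.06 with serotonin, -4.20 with cortisol-serotonin and -4.31 on NT, a difference of 1.25 (error 0.65) with serotonin. The signal of the cells was not higher there. The Ccn1 spot read 125 in Cy5 on the serotonin array and 266 on NT, while its reference signal read 1441 on the serotonin array, 7926 on NT and 4586 and 9860 on the other 2. After scaling, Cy5 differed by -0.63 and Cy3 by -1.88, and 1.4% of probes had a Cy3 difference as low or lower. The fibroblast markers also stood higher on that array, with a mean log2 ratio of -4.82 against -5.49 on NT, and Col3a1 was 4-fold higher (error 1.00 on the log2 scale). That mean was not filtered on Cy5, where 5 of 9 markers were above background on that array and 6 on NT. The part of fibroblast RNA in the Ccn1 value was not tested.

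**Figure D4:**
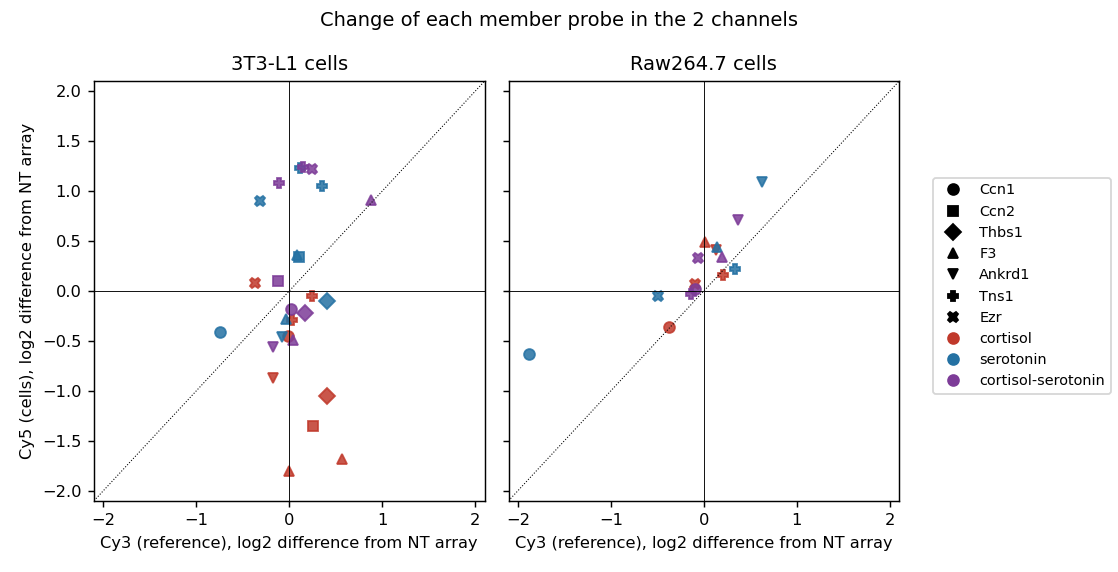
Log2 difference from the NT array in the Cy5 channel of the cells (vertical axis) and in the Cy3 channel of the reference (horizontal axis) for each member probe well above background, in 3T3-L1 cells (left) and Raw264.7 cells (right), after scaling the channels between arrays. Symbols are members, colours are treatments, and the dotted line marks equal change in both channels. The Ccn1 point of the Raw264.7 serotonin array lies at -1.88 in Cy3 and -0.63 in Cy5, while Ccn2, Thbs1 and F3 with cortisol in 3T3-L1 cells lie at -1.05 or lower in Cy5.

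The difference between the lines was not itself used to choose the members and could be tested. The choice on known differences in 3T3-L1 cells may still favour genes with strong signal there. Nothing is therefore read from the direction that the members share. The test was limma, two-sided, over 9029 genes measured on all 8 arrays, with Benjamini-Hochberg adjustment over all of them. The 4 arrays of each line were the replicates and treatment was a term. All 5 testable members were higher in 3T3-L1 cells, where 37.8% of genes were called higher and 75.4% called in either direction. Ccn1 averaged 2.54 ± 0.33 in 3T3-L1 cells and -3.96 ± 0.61 in Raw264.7 cells (log2 ratio, SD, n = 4 each), a difference of 6.50 (SE 0.144), or 90.8-fold, with an adjusted p of 2.21e-10 from limma. Ankrd1 averaged 0.15 ± 0.29 in 3T3-L1 cells and -4.68 ± 0.20 in Raw264.7 cells, a 28.5-fold difference (limma, adjusted p = 1.55e-09). Tns1 was 26.8-fold higher (limma, adjusted p = 2.91e-08) and F3 18.8-fold higher (limma, adjusted p = 1.55e-06), each on the 1 probe measured on all 8 arrays. Ezr averaged 0.88 ± 0.54 in 3T3-L1 cells and -1.15 ± 0.21 in Raw264.7 cells, a difference of 4.09-fold, the smallest of the 5 (limma, adjusted p = 3.29e-07). None of the 5 overlapped between the lines, nor did 71.4% of all genes tested, with 35.5% higher in 3T3-L1 cells.

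For Ccn2 and Thbs1 only a bound can be given, since the Raw264.7 signal was not well above background. Ccn2 read 3886 to 20611 in Cy5 in 3T3-L1 cells and 40 to 74 in Raw264.7 cells, at least 117-fold higher in 3T3-L1 cells. Thbs1 read 10329 to 30368 in 3T3-L1 cells and 39 to 53 in Raw264.7 cells, at least 205-fold higher. The second Tns1 probe was at least 23.4-fold higher. These bounds compare, after scaling of the Cy5 channel, the mean of 3T3-L1 cells with the mean of the lowest signal that counted as well above background, or of the probe's own signal where that was higher, and are open to dye bias. Each line was hybridised on a slide of its own, and each treatment sat at the same position of both slides. Line and slide therefore cannot be told apart, and neither can treatment and position. Line and co-culture set-up, with its cell numbers, cannot be told apart either. Nothing in the labels says that the arrays of a line came from separate cultures beyond their treatment.

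Other genes of the same pathways also differed between the lines. Of all genes tested, 37.8% were called higher in 3T3-L1 cells and 75.4% in either direction. Of 7 YAP and TAZ targets tested, 5 were higher and 2 lower in 3T3-L1 cells at an adjusted p of 0.05 (median log2 difference 2.05), with the receptor kinase gene Axl at 5.02 (SE 0.148) and Amotl2 at 4.86 (SE 0.213) the highest. Of 16 genes of the SRF and MRTF list 13 were higher and 2 lower (median 1.43). Among the higher were the calponin gene Cnn2 at 3.55 (SE 0.126) and Egr1 at 3.13 (SE 0.192). Of 11 receptors 9 were higher and 2 lower (median 1.03), and the lower ones were the leukocyte integrin genes Itgam at -4.17 and Itgb2 at -3.97. Of 6 genes around tissue factor 5 were higher and 1 lower (median 1.05), and of 4 other matricellular genes 3 and 0 (median 1.87). Of 10 Hippo pathway genes 5 were higher and 2 lower (median 0.13), and of 7 TGF-beta genes 3 and 2 (median 0.24). Of 8 tensin and focal adhesion genes 2 were higher and 1 lower (median -0.08). Of 6 ezrin-radixin-moesin genes and partners 3 were higher and 3 lower (median 0.1). In bulk RNA fewer expressing cells and less RNA per cell cannot be told apart.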

How the data were processed

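RNA of 3T3-L1 and Raw264.7 cells was measured on 8 two-colour Agilent arrays on 2 slides, 1 for each line and treatment. Per the labels, the reference was an equal mixture of RNA of all samples, whereas the methods of the study describe pooled RNA of untreated cells grown alone; its signal differed between arrays for some probes. The deposited scanner files hold spot intensity and background per channel (median signals were used), with the processed signals and log10 ratios that the authors obtained with Agilent Feature Extraction 10.5.1.1 according to their processing notes. The deposited value table holds the same log10 ratios, to within 0.005, with column medians of 0; all ratios were turned to log2 here. The arrays' probe names were matched through their accession to RefSeq symbols: 27508 of 39429 probes (69.8%) matched. Intensities were background corrected with normexp (offset 50) and normalised within arrays by loess in limma 3.58.1 (R 4.3.3). Control spots and outlier flags were left out, spots of a probe and then probes of a gene were averaged, and a gene counted as measured where a probe was well above background in both channels of every array compared. Genes were compared as treated minus NT at a threshold of 2-fold, with no test. The lines were compared in limma with treatment as a term, adjusted p threshold 0.05. The step was first run on simulated data with equal noise in all genes and no effect of slide or treatment. That run cannot vouch for the p-values of these arrays. Their number, 1 array per condition, limits the precision.

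The members and gene lists were chosen with earlier results of these data known. The genes named are the 7 members, the 3 genes nearest to each, up to 4 of the largest differences in each list described, and the measured markers and glucocorticoid targets. Alternatives were no filter, no background correction, Feature Extraction signals, median centring, Cy5 alone, the deposited table, the brightest probe, a 1.5-fold threshold, and leaving out arrays. One gene of a list is not reported here and was left out of its counts.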

Additional observations from a re-analysis of the deposited data

Results flagged for a closer look

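Of 15 member comparisons with NT that were measured in both lines, 8 ran in opposite directions in 3T3-L1 and Raw264.7 cells. The share of all genes that ran in opposite directions was not counted, so nothing is read from this count. With 1 array per condition none of these differences between the lines was tested. The widest was F3 with cortisol, at -2.02 (error 0.24) in 3T3-L1 cells and 0.48 (error 0.53) in Raw264.7 cells. Ankrd1 differed from NT by -0.70 in 3T3-L1 cells and 0.28 in Raw264.7 cells with cortisol, by -0.39 in 3T3-L1 cells and 0.48 in Raw264.7 cells with serotonin, and by -0.38 in 3T3-L1 cells and 0.34 in Raw264.7 cells with cortisol-serotonin, where the errors were at least 0.78 in Raw264.7 cells. Tns1 with serotonin differed by 0.90 (error 0.23) in 3T3-L1 cells and -0.12 (error 0.74) in Raw264.7 cells. Ccn1 with cortisol differed by -0.44 in 3T3-L1 cells and 0.02 in Raw264.7 cells, and with cortisol-serotonin by -0.20 in 3T3-L1 cells and 0.11 in Raw264.7 cells. F3 with cortisol-serotonin differed by -0.25 in 3T3-L1 cells and 0.14 in Raw264.7 cells. In all 8 the Raw264.7 value was within its error of 0.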

How the results depend on the processing

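Of 252 member differences under alternatives, 215 moved by less than their error, 36 by more, and 1 that was past 2-fold turned its sign: Ccn1 with serotonin in Raw264.7 cells, at -0.63 in the Cy5 channel alone. In all 30 values turned their sign, 12 of them with median centring, 8 in Cy5 alone and the rest under the other settings. With median centring 7 did so by more than their error on both sides, all in 3T3-L1 cells: Ccn1 and Tns1 with cortisol (0.45 and 0.39), Thbs1 and Ankrd1 with serotonin (0.99 and 0.97), and Thbs1, F3 and Ankrd1 with cortisol-serotonin (0.86, 0.78 and 0.76). With cortisol in 3T3-L1 cells the 3 members past 2-fold, all lower, became 2 with median centring, F3 lower and Ezr higher, and 4 at 1.5-fold. With serotonin the 1 member became 5 with median centring and 2 with the brightest probe or at 1.5-fold. With cortisol-serotonin the 1 became 2 with Feature Extraction signals, the deposited table, Cy5 alone or a 1.5-fold threshold, and 4 with median centring. In Raw264.7 cells with serotonin the 1 became 2 without a filter and 0 with Feature Extraction signals or the deposited table, and in Cy5 alone the 1 was Ankrd1 in place of Ccn1. Median centring moved the median of all genes in 3T3-L1 cells to 0.59, 1.07 and 0.99 with cortisol, serotonin and cortisol-serotonin. Relative to it F3, Ccn2 and Thbs1 with cortisol lay at -1.88, -1.47 and -1.11, Ezr and Tns1 with serotonin at 1.40 and 1.09, and all 7 values above had the sign found with loess.

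The percent of all genes past 2-fold with cortisol, serotonin and cortisol-serotonin in 3T3-L1 cells was 4.14, 2.87 and 2.74 with Feature Extraction signals, 4.12, 2.87 and 2.72 in the deposited table, 17.1, 55.7 and 48.7 with median centring, and 11.2, 8.45 and 7.72 at 1.5-fold. It was 0.848 with cortisol and 0.853 with cortisol-serotonin without a filter, and 2.52 with serotonin and 3.02 with cortisol-serotonin in Cy5 alone. In Raw264.7 cells it was 0.477, 3.13 and 0.873 with Feature Extraction signals, 0.477, 3.11 and 0.845 in the deposited table, 0.724, 6.85 and 3.76 in Cy5 alone, and 0.763, 4.05 and 1.97 at 1.5-fold. Without a filter it was 0.216 with cortisol and 0.405 with cortisol-serotonin. The cause of these moves was not tested.

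All 5 members tested between the lines kept their direction and an adjusted p of at most 0.000462 (limma) under every alternative run. The differences ranged from 6.33 to 7.07 for Ccn1, 4.62 to 5.64 for Ankrd1, 4.28 to 5.58 for Tns1, 3.06 to 4.81 for F3 and 1.82 to 2.17 for Ezr. Of 9029 genes 6806 were called, 4281 with median centring and 6278 to 6558 with the arrays of 1 treatment left out. No paired analysis was possible because each group holds 1 array; a term for treatment, in the fit between lines, stands for the shared conditions, and 6906 genes were called without it. In Raw264.7 cells the dim signals of most members limit what can be seen.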
